A study of Mus musculus with 14 samples.

Results

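The Zfp36 family consists of CCCH zinc finger proteins that bind AU-rich elements (AREs) in mRNA 3′UTRs. The members were taken by gene symbol: *Zfp36*, *Zfp36l1* and *Zfp36l2*, 3 of the 49315 genes in the spleen count table, and all 3 are also among the 18603 genes of the ovary table. The series holds poly(A) RNA-seq of spleens from 4 wild-type (WT) and 4 L2-fKO mice and of ovaries from 3 WT and 3 L2-fKO mice. L2-fKO animals are *Zfp36l2*-/-;CMV-Cre, in which Cre, driven by the CMV promoter in all tissues including germ cells, removed the loxP-flanked exon 2 of *Zfp36l2*. The transgene, Tg.CMV-Cre, was present in the WT littermates too, whose *Zfp36l2* was intact. The labels call the knockout L2-cKO and the spleens spleen organoid, and give no age; L2-fKO pups are known to die within weeks of birth. Of the spleens, 2 WT and 1 L2-fKO came from females, and every ovary from a female. L2-fKO spleen 3 and L2-fKO ovary 1 came from the same animal, and each other library from an animal of its own.

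*Zfp36* encodes tristetraprolin (TTP), the founding member, known for limiting the mRNAs of TNF and other cytokines, and its own mRNA is induced quickly by growth factors and inflammatory signals. *Zfp36l1* and *Zfp36l2* encode close relatives with roles in lymphocyte development, in vascular development (*Zfp36l1*) and in blood stem cells and oocytes (*Zfp36l2*). The tandem zinc fingers of all of them recognise UAUUUA-like sequence, and the proteins recruit the CCR4-NOT deadenylase, which removes the poly(A) tail and starts decay of the target. The mRNA of TTP is itself a known target of the family.

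Library depth was 39138010 to 45167464 counts in the spleen and 31052510 to 44270070 reads in the ovary, where reads were recovered from the normalized values. The ovaries expressed 10 of 10 oocyte and 8 of 8 granulosa cell markers above the filter. The spleens expressed B cell, T cell, erythroid and macrophage markers in both genotypes. Summed markers of megakaryocytes fell from 529-1083 CPM (counts scaled to a common library total) in WT spleens to 26.8-32.6 in L2-fKO spleens. Those of neutrophils fell from 3790.3-6134 to 243-1385. In each list 8 of 8 genes were called lower, against 3.11% of all genes tested in the spleen. Called lower means an adjusted p below 0.05 (edgeR) with a log2 fold change below -1. Pancreatic acinar markers summed to 108-421 CPM in WT spleens 1, 2 and 4, and to 0.966 in WT spleen 3 and 0.564-1.76 in the L2-fKO spleens. In whole organs, fewer cells of a type and less RNA per cell cannot be told apart.

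The 3 genes lie on different chromosomes of GRCm38, each on the minus strand. *Zfp36* (ENSMUSG00000044786) is at chr7:28376784-28380253, *Zfp36l1* (ENSMUSG00000021127) at chr12:80107754-80113013 and *Zfp36l2* (ENSMUSG00000045817) at chr17:84183931-84187947. Each main transcript has 2 exons. Exon 2 of *Zfp36l2*, the deleted part, spans chr17:84183931-84187156 and makes up 91.4% of the 3530 nt transcript, and exon 1, at chr17:84187644-84187947, the other 8.61%.

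The 3′UTRs of the family itself were searched for UAUUUAU, the motif that ZFP36L2 needed for binding in the authors' gel shifts. It was matched as TATTTAT in the genome's letters, on the transcript strand, overlaps counted. In such assays TTP (ZFP36) did not bind probes with a single match, though the authors do not exclude weaker binding. Each member held 3 matches, all in the 3′UTR part of the last exon. They are printed here 5′ to 3′ with 10 flanking bases on each side, the match in capitals, to show where the motif lies:
Zfp36, chr7:28376967-28376993: gtgggcccttTATTTATgacgacttta
Zfp36, chr7:28376952-28376978: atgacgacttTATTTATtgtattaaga
Zfp36, chr7:28376927-28376953: gattttatagTATTTATatatattggg
Zfp36l1, chr12:80108423-80108449: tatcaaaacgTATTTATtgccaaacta
Zfp36l1, chr12:80108382-80108408: attttgttcaTATTTATcgggatgaca
Zfp36l1, chr12:80108168-80108194: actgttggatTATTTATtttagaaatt
Zfp36l2, chr17:84184915-84184941: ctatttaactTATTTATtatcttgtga
Zfp36l2, chr17:84184867-84184893: gtccatactgTATTTATcgagtatgat
Zfp36l2, chr17:84184681-84184707: ttgtatgtaaTATTTATttcattaatt

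Among 21186 genes with an annotated 3′UTR, 27.4% held at least 1 TATTTAT and 4.13% held 3 or more. Length matters here, and the share was therefore also taken over 3′UTRs within 10% of each member's length. For *Zfp36*, with a 3′UTR of 774 nt, 1.16% of 1211 such genes held 3 or more. For *Zfp36l1* (1835 nt) the share was 4.43% of 1580 genes, and for *Zfp36l2* (1822 nt) 4.52% of 1592. The shorter pentamer ATTTA, which overlaps every TATTTAT, occurred 3 times in *Zfp36*, 9 times in *Zfp36l1* and 5 times in *Zfp36l2*. Of all 3′UTRs, 65.6% held it at least once. Among 3′UTRs of like length, 15.9% held as many or more as *Zfp36*, 5.63% as *Zfp36l1* and 27.9% as *Zfp36l2*. The 3 matches of *Zfp36* lie close together and its first and second printed stretches share bases, whereas those of *Zfp36l1* and *Zfp36l2* are spread over a longer stretch. The matches of *Zfp36l2* all lie in the deleted exon. A match describes the sequence and does not show binding.

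To compare the members with each other, levels were expressed per kilobase of exon (RPKM). In WT spleens *Zfp36l2* was highest at 37.6 ± 9.30 RPKM (SD, n = 4), *Zfp36l1* followed at 22.4 ± 4.05, and *Zfp36* was lowest at 9.86 ± 3.37. The ranges of neighbours in this order did not overlap: 28.6-48.5 for *Zfp36l2*, 16.7-26.3 for *Zfp36l1* and 6.52-14.5 for *Zfp36*. In WT ovaries the order differed. *Zfp36l1* was highest at 48.1 ± 3.58 RPKM (SD, n = 3), *Zfp36l2* second at 36.9 ± 0.643, and *Zfp36* far lower at 2.57 ± 0.116, again with no overlap between neighbours. In rank, WT *Zfp36l2* lay above 91.5% of the genes tested in the spleen and 92.8% of those in the ovary, while *Zfp36* lay above 72.2% in the spleen and 39.7% in the ovary. The levels of the 2 organs come from different tables and were not tested against each other. The length of *Zfp36* includes a retained-intron isoform (3470 nt in all, against 2790 nt for the main transcript), which lowers its RPKM. The rodent member *Zfp36l3*, known from placenta, had 0 counts in 7 spleens and 2 counts in WT spleen 3.

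*Zfp36l2* was measured first, as the check of the genotype labels. In WT spleens it had 7394, 4773, 6429 and 4362 normalized counts, and in L2-fKO spleens 278, 326, 349 and 405. The lowest WT spleen was far above the highest L2-fKO spleen, a separation in this direction that 10.8% of all spleen genes showed. The fitted level in L2-fKO spleens was 0.0592 of WT (95% confidence interval 0.0429 to 0.0816), a log2 fold change of -4.08 (SE 0.21, adjusted p = 8.84e-06, edgeR). In WT ovaries it had 4868, 4906 and 4745 normalized counts, and in L2-fKO ovaries 758, 1011 and 1009, every one below WT, as were 12.0% of all ovary genes. The remaining level was 0.190 of WT (0.157 to 0.230), a log2 fold change of -2.40 (SE 0.12, adjusted p = 5.78e-04, limma). *Zfp36l2* was thus low in every library labelled L2-fKO, and reads over it remained in both organs: 266 to 475 counts per spleen and 848 to 984 recovered reads per ovary. The table gives counts per gene, so whether they fell in exon 1 was not tested.

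The loss was larger in the spleen than in the ovary. In a fit of both organs, the log2 fold change of *Zfp36l2* in the spleen minus that in the ovary was -1.66 (SE 0.24, 95% confidence interval -2.16 to -1.16, adjusted p = 8.89e-04, edgeR). Of all genes in that fit, 5.22% passed an adjusted p of 0.05. Leaving out each library in turn gave -1.78 to -1.52. Measured within libraries as a ratio of counts to *Zfp36l1*, *Zfp36l2* was 1.46 to 2.98 in WT spleens and 0.0930 to 0.129 in L2-fKO spleens, against 0.846 to 0.940 in WT ovaries and 0.119 to 0.158 in L2-fKO ovaries.

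**Figure D1:**
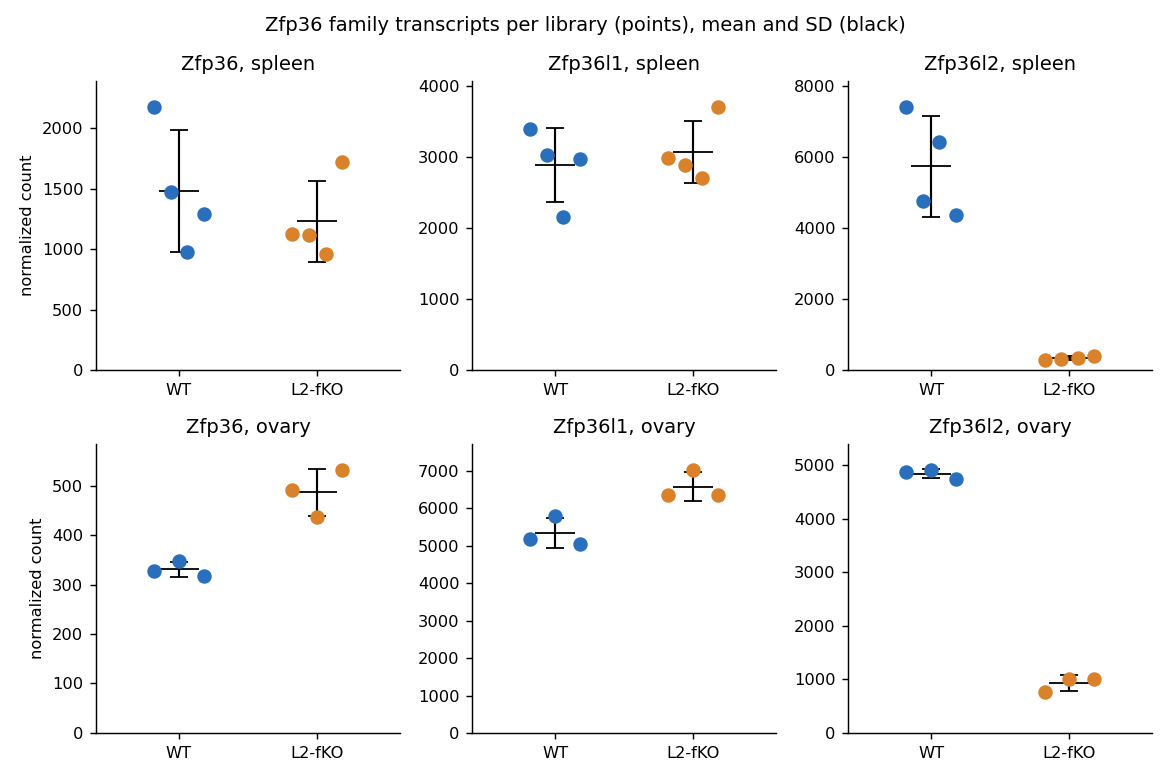
Normalized counts of Zfp36, Zfp36l1 and Zfp36l2 in each library (points) with group mean and SD (black), spleen above and ovary below, y axes from 0. Zfp36l2 is low in every L2-fKO library; the Zfp36 and Zfp36l1 points of the genotypes overlap in the spleen and lie apart in the ovary, where Zfp36 is 318-348 in WT and 438-532 in L2-fKO.

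The question for the other members was whether their transcripts were higher where *Zfp36l2* was lost. In the spleen neither passed the test. *Zfp36* had 2171, 1472, 978 and 1293 normalized counts in WT spleens and 1126, 1113, 964 and 1719.8 in L2-fKO spleens. The groups overlapped almost fully, and WT spleen 1 and L2-fKO spleen 4 were the high ones. The log2 fold change was -0.26 (SE 0.25, adjusted p = 0.527, edgeR), and its 95% confidence interval, -0.83 to 0.30, leaves room for a level from 0.563 to 1.23 of WT. The value depended on WT spleen 1: without it the log2 fold change was -0.019.

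*Zfp36l1* had 3403, 3037, 2161 and 2979 normalized counts in WT spleens and 2987, 2892, 2706 and 3704 in L2-fKO spleens. Here too the groups overlapped, with WT spleen 3 lowest and L2-fKO spleen 4 highest. The log2 fold change was 0.086 (SE 0.15, 95% confidence interval -0.26 to 0.43, adjusted p = 0.751, edgeR). It turned to -0.035 without WT spleen 3, and to -0.013 without L2-fKO spleen 4. Of the 3 members, 1 was called in the spleen (*Zfp36l2* itself), where a call is an adjusted p below 0.05 with an absolute log2 fold change above 1. Of all 16911 genes tested there, 6.01% were called.

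In the ovary, *Zfp36* and *Zfp36l1* were both higher in every L2-fKO library than in every WT library, without passing the adjusted test. *Zfp36* had 327, 348 and 318 normalized counts in WT ovaries and 491, 438 and 532 in L2-fKO ovaries, means of 331 ± 15.0 and 487 ± 47.2 (SD, n = 3 each). On the log2(normalized count + 1) scale the difference was 0.55 (SE 0.12, 95% confidence interval 0.28 to 0.82), 1.47-fold, with an adjusted p = 0.0730 by limma. *Zfp36l1* had 5182, 5797 and 5049.99 normalized counts in WT ovaries and 6357, 7028 and 6366 in L2-fKO ovaries. The difference was 0.30 (SE 0.079, 95% confidence interval 0.12 to 0.49), 1.23-fold, with an adjusted p = 0.123 by limma. Among all 18504 genes tested, 13.2% had every L2-fKO ovary above every WT ovary, and an exact permutation test over the libraries gave p = 0.1 for each of the 2 genes, the smallest that 3 against 3 allows.

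On which side of an adjusted p of 0.05 both genes fell in the ovary depended on the test. DESeq2 on the recovered reads gave the same sizes, 0.55 for *Zfp36* and 0.30 for *Zfp36l1*, with adjusted p = 0.00312 and 0.0448; 4.37% of the genes in that fit were higher in L2-fKO at an adjusted p below 0.05. Without L2-fKO ovary 2, the lowest of its group for *Zfp36*, limma's adjusted p for *Zfp36* was 0.0360. Neither gene reached the log2 fold change of 1 that a call requires in any fit. Of the 3 members, 1 was called in the ovary (*Zfp36l2*), against 0.957% of all genes.

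**Figure D2:**
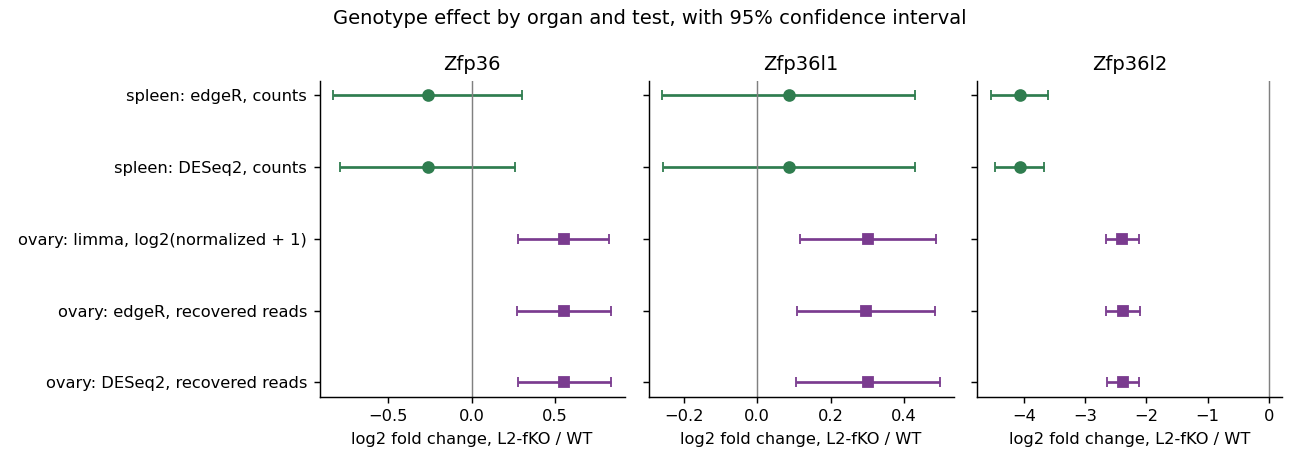
Log2 fold change of each member (L2-fKO over WT) with its 95% confidence interval, by organ and test; green circles are spleen, purple squares ovary, and each panel has its own x axis. The intervals of Zfp36 and Zfp36l1 span 0 in the spleen and lie above 0 in the ovary, while Zfp36l2 lies near -4.08 in the spleen and -2.40 in the ovary.

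For *Zfp36* the spleen effect minus the ovary effect was -0.80 (SE 0.33, 95% confidence interval -1.50 to -0.092), which did not pass the test across all genes (adjusted p = 0.187, edgeR). Leaving out each library in turn gave adjusted p of 0.0503 to 0.314. For *Zfp36l1* it was -0.19 (SE 0.21, 95% confidence interval -0.64 to 0.25, adjusted p = 0.647, edgeR). Among the members only *Zfp36l2* thus passed this test. Not passing it does not show that the effect on *Zfp36* or *Zfp36l1* was equal in both organs.

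Macrophage markers, like *Zfp36* and *Zfp36l1*, were higher in L2-fKO than in WT ovaries. All 7 of 7 macrophage genes were higher in every L2-fKO ovary than in every WT ovary, as were 13.2% of all ovary genes. Of the 7, 6 had an unadjusted p below 0.05, against 16.8% of all genes, although none was called by limma (1 was by DESeq2). Their summed level was 48.4-52.4 CPM in WT and 63.3-95.1 CPM in L2-fKO ovaries. *C1qa*, a complement gene of resident macrophages, had a log2 difference of 1.01 (adjusted p = 0.0726, limma), and *Csf1r*, the receptor for their growth factor, 0.50 (adjusted p = 0.119, limma). *Zfp36* per unit of this macrophage sum was 0.168, 0.193 and 0.172 in WT ovaries and 0.138, 0.127 and 0.226 in L2-fKO ovaries. The genotypes overlapped on that scale, which does not show which cells held the transcripts. *Zfp36l1* per unit of the sum was 2.66, 3.22 and 2.73 in WT ovaries and 1.79, 2.04 and 2.70 in L2-fKO ovaries, where only L2-fKO ovary 3 reached the WT range. L2-fKO ovary 3 had the highest *Zfp36* level and the lowest macrophage sum of its group. Of the T cell list, 3 of 7 genes were in the ovary table, and *Cd4* was called higher (log2 2.12, adjusted p = 0.00933, limma), whereas *Cd3g* (0.73) and *Lck* (0.015) did not pass. The *Cd4* call was lost without WT ovary 2 (adjusted p = 0.0631, limma) and without WT ovary 3 (adjusted p = 0.0586, limma). Of 6 B cell genes tested, 3 had an unadjusted p below 0.05, all higher, against 16.8% of all genes, and none was called. B cell markers summed to 2.89-3.73 CPM in WT and 3.61-6.72 CPM in L2-fKO ovaries. Granulosa cell markers summed to 901 CPM in L2-fKO ovary 2 and to 1790.4-2166 CPM in the other 5 ovaries. The part of these markers in the *Zfp36* and *Zfp36l1* values was not tested.

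The share of each member in the family's transcripts is given here as a description, since the shares of the other members must rise where *Zfp36l2* is lost. By RPKM, *Zfp36l2* made up 47.4-64.5% of the family sum in WT spleens and 5.61-7.71% in L2-fKO spleens, *Zfp36l1* made up 25.6-38.3% and 67.0-71.2%, and *Zfp36* 9.97-16.2% and 21.7-26.8%. In the ovary, *Zfp36l2* made up 40.5-43.0% in WT and 8.65-11.1% in L2-fKO. *Zfp36* was 2.92-2.94% of the family in WT ovaries, a very narrow range, and 4.57-5.97% in L2-fKO ovaries. The family sum was 60.3-89.3 RPKM in WT spleens and 29.6-42.8 in L2-fKO spleens, and 84.0-92.2 in WT ovaries and 66.4-74.1 in L2-fKO ovaries. *Zfp36* and *Zfp36l1* together gave 23.2-40.8 RPKM in WT and 27.4-40.1 in L2-fKO spleens, which overlap, and 47.9-54.8 in WT and 60.6-66.4 in L2-fKO ovaries, which do not.

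**Figure D3:**
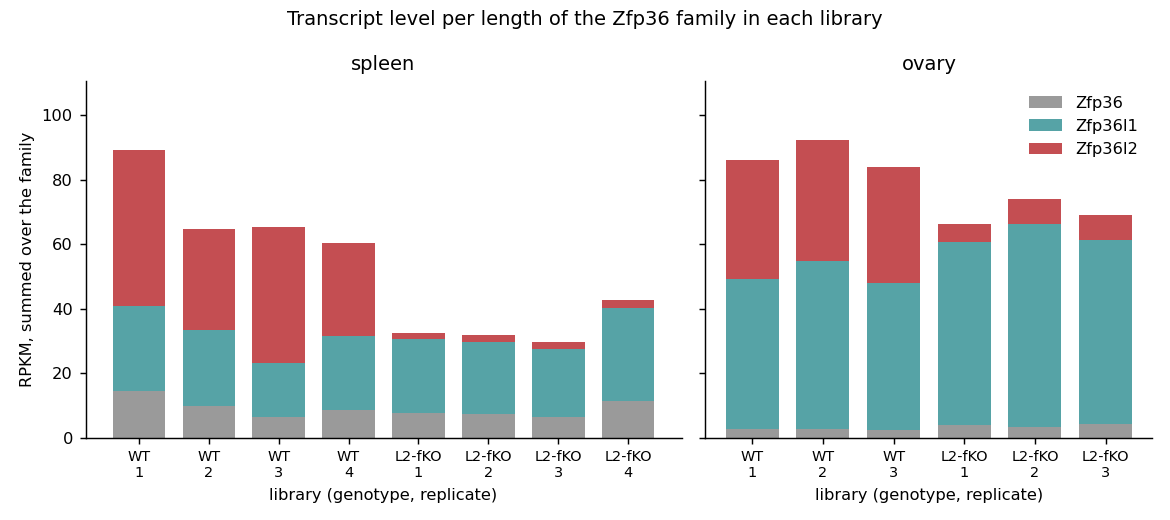
RPKM of Zfp36 (grey), Zfp36l1 (teal) and Zfp36l2 (red), stacked for each library, spleen left and ovary right. Zfp36l2 is divided by its full exon length, deleted part included. On this scale the red part is 5.61-7.71% of the sum in L2-fKO spleens and 8.65-11.1% in L2-fKO ovaries. Zfp36l1 is then the largest part.

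The ratio of *Zfp36* to *Zfp36l1* within a library does not depend on scaling. In the spleen it was 0.638, 0.485, 0.453 and 0.434 in WT and 0.377, 0.385, 0.356 and 0.464 in L2-fKO libraries. L2-fKO spleens tended to lower ratios and only L2-fKO spleen 4 reached into the WT range, a log2 difference of -0.33 (two-sided exact permutation test, p = 0.0857, n = 4 each; the smallest possible is 0.0286). In the ovary the ratio was 0.0632, 0.0600 and 0.0630 in WT and 0.0772, 0.0623 and 0.0835 in L2-fKO libraries, a log2 difference of 0.25 (two-sided exact permutation test, p = 0.3, n = 3 each; the smallest possible is 0.1). Neither ratio passed the test.

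Among themselves the spleens varied far more in *Zfp36* than the ovaries did, with a coefficient of variation of 34.1% in WT spleens against 4.52% in WT ovaries. After centring each genotype on its mean, *Zfp36* and *Zfp36l1* rose and fell together across the 8 spleens (r = 0.94) but not across the 6 ovaries (r = -0.19). *Zfp36l2* followed neither in the spleen (r = 0.43 with *Zfp36* and 0.12 with *Zfp36l1*). These correlations describe few libraries, which also share their depth and cell content. For *Zfp36l2* they include the L2-fKO spleens, where only 266 to 475 counts remained after the deletion, and so does its list below. Compared by the same measure with 9474 genes, those most like *Zfp36* in the spleen were *Birc3* (r = 0.998), an inhibitor of cell death induced by NF-kB, *Nfkb2*, an NF-kB subunit, *Card6*, *Acvr1b*, an activin receptor, and *Il10ra*, the interleukin 10 receptor, each with r of 0.997 or above. In the ovary the r of these 5 genes with *Zfp36* ranged from -0.22 to 0.66. Those most like *Zfp36l1* were *Gimap6*, *Usf1*, *Pim2*, *Ifi30* and *Ltb* (r = 0.989 to 0.994 in the spleen, -0.29 to 0.72 in the ovary). Those most like *Zfp36l2* were *Bptf*, *Pdgfra*, *Kmt2a*, *Uri1* and *Msantd2* (r = 0.965 to 0.989 in the spleen, -0.76 to 0.36 in the ovary).

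*Zfp36* is itself induced with the immediate-early genes, transcription factors and phosphatases switched on within minutes of a stimulus, and these were therefore read beside it. The 8 spleens fell in the same order by *Zfp36* and by the mean log2 CPM of 20 immediate-early genes, from WT spleen 1 (50.2 CPM and 4.65) to L2-fKO spleen 3 (22.3 CPM and 4.14). In the ovary the order was not shared: WT ovary 2 had the highest immediate-early mean (4.22) and a *Zfp36* level of 9.35 CPM, below all L2-fKO ovaries. The immediate-early mean was 3.52-4.22 in WT and 3.98-4.13 in L2-fKO ovaries, so the genotypes overlapped, although 19 of 20 genes had a log2 difference above 0 (median 0.29). None of the 20 was called in either organ, by edgeR, limma or DESeq2. An unadjusted p below 0.05 was found for 6 in the spleen and 2 in the ovary, against 29.0% of all spleen genes and 16.8% of all ovary genes. In the spleen the lowest p-values belonged to *Junb*, an AP-1 subunit (0.63, adjusted p = 0.00469, edgeR), and *Klf4* (-0.69, adjusted p = 0.0327, edgeR), followed by *Ier5* (-0.37) and *Egr1* (0.83), which did not pass. *Klf4* kept an adjusted p below 0.05 in 2 of the 8 fits with 1 spleen left out, those without L2-fKO spleen 2 and without L2-fKO spleen 4, and reached 0.0939 (edgeR) in the others. In the ovary they belonged to *Dusp2* (0.65), *Klf2* (0.32), *Gadd45b* (0.41) and *Dusp1* (0.33), with adjusted p of 0.0849 to 0.400 (limma). The role of tissue handling in these values was not tested.

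**Figure D4:**
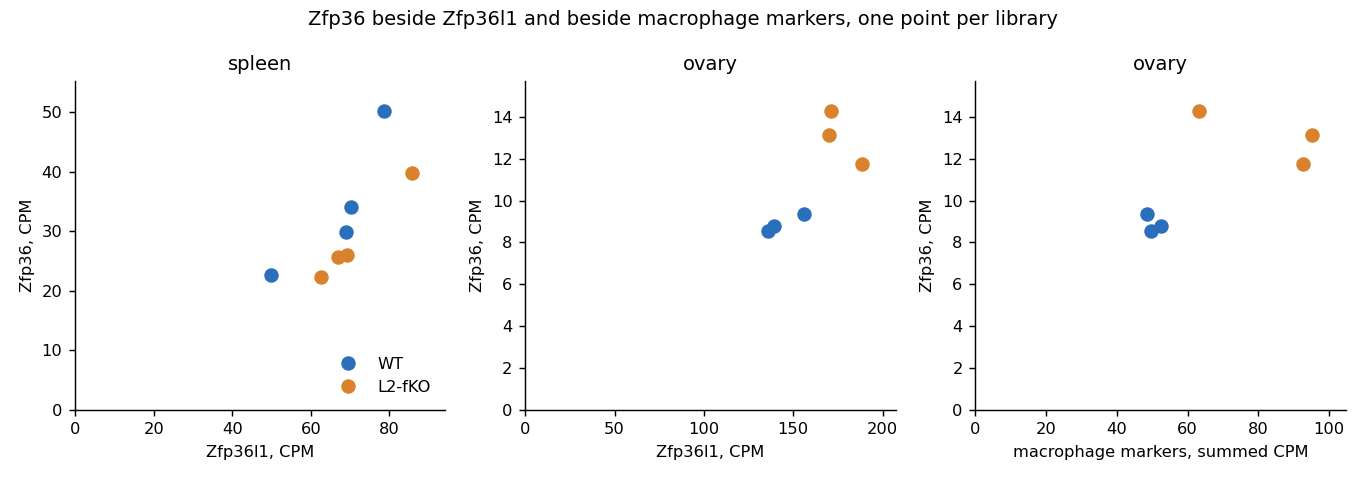
Left and middle, Zfp36 against Zfp36l1 (CPM) in spleen and ovary; right, Zfp36 against the summed CPM of 7 macrophage markers in the ovary. Each point is a library (blue WT, orange L2-fKO), and in the ovary both the Zfp36 level and the macrophage sum (63.3-95.1 CPM) of every L2-fKO library exceed those of every WT library (48.4-52.4 CPM).

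The partners of the family in decay were measured next. Of 35 deadenylation and decay factors tested in each organ (CCR4-NOT, PAN2-PAN3, decapping enzymes and the exosome), none was called, by edgeR in the spleen, limma in the ovary or DESeq2 in either. An unadjusted p below 0.05 was found for 7 in the spleen, 5 of them lower in L2-fKO, and for 9 in the ovary, 8 of them lower, against 29.0% and 16.8% of all genes. *Tob1*, an adaptor that links mRNA-bound proteins to CCR4-NOT, fell in the spleen by 0.82 on the log2 scale (adjusted p = 0.00257, edgeR). The next in order, *Exosc5* (-0.44) and *Pan2* (-0.37) and *Dis3* (0.43), did not pass. In the ovary 10 of the 35 had every L2-fKO library below every WT library, against 12.0% of all genes, led by *Exosc7* (-0.37, adjusted p = 0.120, limma), *Exosc3* (-0.37), *Cnot11* (-0.25) and *Edc4* (-0.17), and the list median was -0.10 against -0.0042 for all genes.

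A list of other RNA-binding proteins, ARE-binding ones among them, was also compared. Over all genes of the spleen fit, 2.90% were called higher and 3.11% lower. Of this list 1 of 18 tested was called higher there, *Elavl2*, a HuR relative that stabilises targets, from 0.0230-0.164 CPM in WT to 1.05-2.81 CPM in L2-fKO spleens (log2 fold change 4.75, SE 0.52, adjusted p = 5.03e-04, edgeR). No WT spleen had more than 7 counts of *Elavl2*, against 53 to 112 in the L2-fKO spleens. It therefore passed the filter through the L2-fKO group alone. With at least 10 counts required in all 8 spleens, 0 of the 16 genes left were called. Of all 15133 genes in that fit, 385 were called higher and 351 lower. *Rc3h2*, which encodes Roquin-2, fell by 0.46 on the log2 scale (adjusted p = 0.0296, edgeR), a difference past the threshold in 3 of the 8 fits with 1 spleen left out (without L2-fKO spleen 3, L2-fKO spleen 4 or WT spleen 3; adjusted p up to 0.104 in the others, edgeR), and *Celf2* (-0.69) and *Khsrp* (-0.29) did not pass. In the ovary, where *Elavl2* was at 103-115 CPM in WT and 126-208 CPM in L2-fKO libraries, none of 19 was called by limma or DESeq2, and 5 had an unadjusted p below 0.05, all higher, against 16.8% of all genes in either direction. The lowest p-values there belonged to *Zc3h12a*, the endonuclease Regnase-1 (0.78, adjusted p = 0.0819, limma), *Celf2* (0.52), *Rc3h2* (0.24) and *Elavl2* (0.50).

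The activity of the proteins is set by phosphorylation through p38 and MK2, with binding to 14-3-3 proteins, and is reversed by PP2A. Of 19 such genes, 1 was called higher in the spleen, against 2.90% of all genes: *Map2k3*, a kinase that activates p38, from 105-168 CPM in WT to 169-390 CPM in L2-fKO spleens (1.09, SE 0.24, adjusted p = 0.0166, edgeR). Its call was lost without L2-fKO spleen 3 (log2 fold change 0.91), without WT spleen 2 (adjusted p = 0.0552, edgeR) and without WT spleen 4 (adjusted p = 0.0563, edgeR). *Akt1* rose by 0.37 (adjusted p = 0.0369, edgeR), which stayed past the threshold in 2 of the 8 fits with 1 spleen left out (without L2-fKO spleen 4 or WT spleen 3; adjusted p up to 0.128 in the others, edgeR), while *Mapkapk3* (-0.54) and *Ppp2cb* (-0.28) did not pass. In the ovary none of 19 was called by limma or DESeq2 (2 had an unadjusted p below 0.05, against 16.8% of all genes), and the lowest p-values belonged to *Mapk11*, a p38 kinase (0.60, adjusted p = 0.0591, limma), *Ywhaz* (0.23), *Rps6ka1* (0.18) and *Dusp1* (0.33).

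Targets of the family known from other work were compared between genotypes, with a list of 27 genes of which 20 passed the spleen filter. Of these, 5 were called higher and 0 lower, against 2.90% and 3.11% of all genes (8 higher and 1 lower without WT spleen 3), with a list median of 0.66 against -0.020 for all genes. They were the cell cycle inhibitor *Cdkn1a* (log2 fold change 2.02), the kinase gene *Pim1* (1.68), the chemokine genes *Cxcl1* (2.31) and *Ccl2* (2.04), and the cytokine gene *Il6* (1.97), with adjusted p from 4.62e-04 to 0.0213 (edgeR). The *Il6* call was lost without L2-fKO spleen 1 (adjusted p = 0.0502, edgeR), and the other 4 were kept with each spleen left out in turn. *Cxcl1*, *Il6* and *Ccl2* were close to the detection limit in WT spleens, at most 0.138, 0.117 and 0.467 CPM. *Cxcl1* had at most 6 counts and *Il6* at most 5 in WT spleens, against at least 10 in every L2-fKO spleen. Both therefore passed the filter through the L2-fKO group alone, and *Ccl2*, with 6 counts in WT spleen 3, needed that group too. Their calls add no support to the count set against 2.90%. The list median of 0.66 includes these genes and adds no support either. It was not taken without them. With at least 10 counts required in all 8 spleens, 2 of the 14 targets left were called higher. Of all 15133 genes in that fit, 385 were called higher and 351 lower. *Pim1* was abundant, at 168-367 CPM in WT and 487-1055 CPM in L2-fKO spleens. *Star*, which imports cholesterol for steroid synthesis, fell by 0.91 (adjusted p = 0.0163, edgeR; 0.0524 without WT spleen 2 and 0.0563 without WT spleen 4), and *Tnf*, the classic TTP target, was at -0.14 (SE 0.34, adjusted p = 0.814, edgeR).

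In the ovary none of the 16 targets that passed the filter was called by limma or DESeq2, and limma called 0.957% of all genes. At that share so few genes would often yield no call. Of the targets, 7 had an unadjusted p below 0.05, all higher, against 16.8% of all genes in either direction. Of the 16, 7 had every L2-fKO ovary above every WT ovary and 0 had every one below, with a list median of 0.35. The lowest p-values belonged to *Vegfa*, an angiogenic factor (0.35, adjusted p = 0.0925, limma), *Notch1* (0.40), *Cdkn1a* (0.81, adjusted p = 0.126, limma) and *Rest* (0.28). *Pim1*, called in the spleen, had an ovary log2 difference of 0.060 (SE 0.11). Since 13.2% of all ovary genes lay above WT in every L2-fKO library, and since the macrophage sum differed as given above, the part of other cells in these values was not tested. The megakaryocyte and neutrophil markers given above fell in the same L2-fKO spleens in which the 5 targets rose. Stromal markers were above 0 for 6 of 6 genes, with *Pdgfra* (1.59) and *Pdgfrb* (1.15) called higher, and summed to 778-952 CPM in WT and 1036-1357 CPM in L2-fKO spleens. Macrophage markers were above 0 for 6 of 7 genes, none called but 4 with an unadjusted p below 0.05 (29.0% of all genes), and summed to 563-1021 CPM in WT and 976-1863 CPM in L2-fKO spleens. The part of these cells was likewise not tested.

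**Figure D5:**
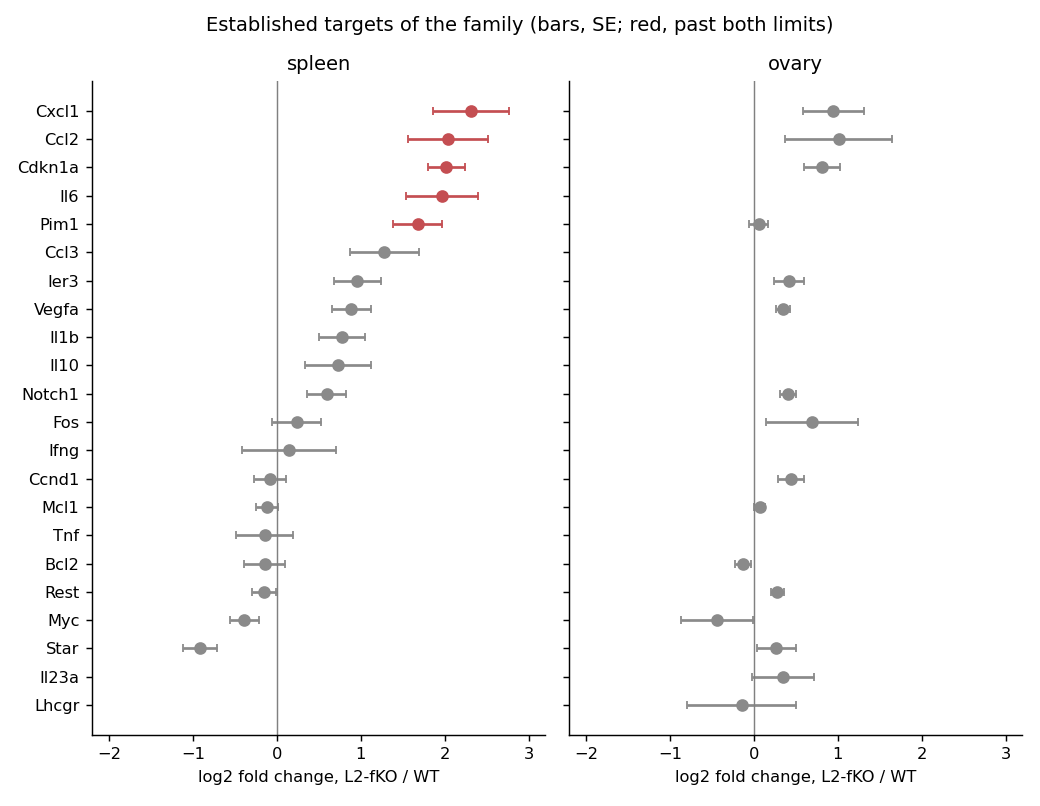
Log2 fold change (L2-fKO over WT) with SE for the targets that passed the filter, in spleen (left, 20 genes) and ovary (right, 16 genes); red marks genes called, grey those not called. In the spleen 5 targets, from Pim1 at 1.68 to Cxcl1 at 2.31, were called and lie to the right. Among them, Cxcl1 and Il6 passed the filter through the L2-fKO group alone, and Ccl2 needed that group too. In the ovary none was called. Over all genes, 2.90% were called higher in the spleen, and 0.957% were called in the ovary.

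Genes near the deleted locus were compared between genotypes, which does not check the deletion of exon 2 itself. At the shares of all genes given next, so few genes would often yield no call. Of the genes starting within 1000000 bases of *Zfp36l2*, 0 of 14 tested in the spleen and 0 of 15 in the ovary were called, by edgeR, limma or DESeq2, against 6.01% and 0.957% of all genes by edgeR and limma, and 2 in each organ had an unadjusted p below 0.05, against 29.0% and 16.8%. The nearest on either side were *Thada* (0.29 in the spleen, adjusted p = 0.240, edgeR; 0.26 in the ovary, adjusted p = 0.395, limma) and C430042M11Rik (0.21 and 0.29). The nearest to *Zfp36* were *Plekhg2* (0.35 and 0.26) and Gm44710 (-0.10 and 0.034), and to *Zfp36l1* they were *Rad51b* (-0.12 and -0.33) and Gm26669 (0.13 and 0.14), and none of them passed. Gm44710 and Gm26669 overlap *Zfp36* and *Zfp36l1* on the opposite strand, and the authors counted by strand.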

How the data were processed

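Libraries were made from poly(A) RNA with NEBNext Ultra II. The authors used Trimmomatic 0.36 for trimming, STAR 2.5.2b for mapping to GRCm38 and featureCounts (Subread 1.5.2) for strand-specific counting of uniquely mapped exonic reads, steps stated for the spleen. Spleen values are the deposited raw counts per gene. Ovary values are signal as deposited by the authors: counts divided by 1 size factor per library, within their comparison table. Every ovary value was a whole multiple of its library's step (100% within 0.001 of a read), so reads were recovered. The authors' DESeq2 fold changes and p-values were not used.

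The spleen was tested with edgeR 4.0.16 (quasi-likelihood, TMM; at least 10 counts in at least 4 libraries) and the ovary with limma 3.58.1 (intensity trend) on log2(normalized count + 1), value at least 10 in at least 3 libraries. The difference between organs was a genotype by organ term in edgeR over counts and recovered reads of 18603 genes. DESeq2 1.42.0 was an alternative, and R 4.3.3 was used. A fold change on the log2(normalized count + 1) scale understates low genes. P-values are Benjamini-Hochberg adjusted over all genes tested, and a call also needs an absolute log2 fold change above 1. All 3 members passed every filter. CPM uses TMM-scaled library sizes, and RPKM divides it by the union exon length of GENCODE M21 (GRCm38). The longest annotated 3′UTR per gene was searched. The scripts were tested on simulated data.

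The members and gene lists were chosen with earlier results of these data known. Named were the 3 members, the 5 genes most alike to each (Pearson r over 8 spleens, mean CPM at least 10), up to 4 genes of lowest p per pathway list with every one called, and the nearest genes; *Tnf*, *Star*, *C1qa*, *Csf1r*, *Cd4*, *Cd3g* and *Lck* and the ovary value of *Pim1* were added after their values were seen. An item of the target list is not reported here. In the labels 2 WT spleens carry the number 3, and the male one is called WT spleen 4. Each library is 1 animal. Libraries of a group differed by more than sampling noise (lowest chi-square per degree of freedom 7.24). Alternatives changed the scaling, test, filter, pseudocount, sex term, replicate block and libraries.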

Additional observations from a re-analysis of the deposited data

Results flagged for a closer look

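The genotype effect on *Zfp36l2* differed between organs: the log2 fold change in the spleen minus that in the ovary was -1.66 (SE 0.24, adjusted p = 8.89e-04 for the genotype by organ term, edgeR, 8 spleens and 6 ovaries). All 4 L2-fKO spleens and all 3 L2-fKO ovaries were below every WT library of their organ. No library of the members or of the within-library ratios stood apart from its spleen group by Dixon's test; ovary groups of 3 were not tested.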

How the results depend on the processing

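The sign of the *Zfp36l2* loss and its side of the adjusted p threshold were the same under every alternative run in both organs, and so were those of its difference between organs. For *Zfp36l1* in the spleen, whose value is near 0, the sign turned without WT replicate 3 (-0.035) and without L2-fKO replicate 4 (-0.013); the range over left-out libraries was -0.035 to 0.17. In the ovary, DESeq2 on recovered reads brought *Zfp36* (0.55) and *Zfp36l1* (0.30) past an adjusted p of 0.05, and leaving out libraries gave 0.49 to 0.63 for *Zfp36*, with the adjusted p past the threshold only without L2-fKO replicate 2. The cause was not tested. Leaving out libraries gave -0.47 to -0.019 for *Zfp36* in the spleen.

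The ovary calls over all genes were 135 higher and 42 lower by limma, 286 and 121 by DESeq2, and 28-126 and 4-72 with 1 library left out. Targets called higher in the spleen, 5 in the report, were 2 when 10 counts were required in all libraries, and 4 to 8 with 1 library left out, the 8 without WT replicate 3; *Il6* was not called with the replicate block (adjusted p = 0.0624, edgeR), and neither *Il6* (0.105) nor *Ccl2* (0.0780) in male libraries alone (alternatives chosen after seeing the data, as was leaving libraries out of the organ comparison).

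The authors describe the spleens as 4 age-matched pairs and the ovaries as age-matched. The labels do not say which animals were paired, and the main fits took no account of pairs. By number, which for WT spleen 4 was assigned here, deviations of the spleens correlated at -0.25, 0.12, 0.23 and -0.44. This does not show that the animals were unpaired. In the ovary they correlated at 0.54, 0.30 and 0.094, all positive. WT ovary 3 correlated better with L2-fKO ovary 2 (0.24) than with its own number. Whether the ovary numbers mark pairs of animals was not tested. With the replicate block *Zfp36*, *Zfp36l1* and *Zfp36l2* were -0.24, 0.095 and -4.06 in the spleen and 0.55, 0.30 and -2.40 in the ovary, and -0.76, -0.18 and -1.63 for the organ difference. No member's call changed with the block, and the ovary calls were 187 higher and 81 lower. *Zfp36l1* in the ovary came to an adjusted p = 0.0510 (limma), from 0.123 without the block. *Zfp36* rested on 269 to 549 recovered reads per ovary, the fewest of any intact member.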
